A study of Mus musculus with 2 samples.

Results

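The motile cilium genes are a list of 51 mouse genes that build, move or switch on the beating cilium, chosen by name from their known function, with earlier results of these data known. Of the 51 names, 49 were found among the 21670 protein-coding genes of the autosomes and the X chromosome in GENCODE M21. Dnai1 and Dnai2, intermediate chains of the outer dynein arm, were not matched by name and were not analysed here. The study mapped chromatin accessibility by DNase-seq, in which DNase I cuts exposed DNA in nuclei and clusters of cuts are called as peaks. Its 2 libraries form 1 group, the cerebellum of male B6CASTF1/J mice aged 4 days, an F1 hybrid, and whether the alleles of the parent strains mapped equally well was not tested. Each library was made from 3 males, per its label, and the libraries are numbered as biological replicates 1 and 2. All animals shared strain, sex and age, and no treatment, mutation or second condition is in the labels. There is thus no comparison between conditions, and the questions are which motile cilium promoters were accessible, how strongly, and how the libraries differed.

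A motile cilium is a whip-like extension of the cell built on a ring of microtubule doublets around a central pair. Outer and inner dynein arms slide the doublets past each other, radial spokes pass signals from the central apparatus to the arms, and the nexin-dynein regulatory complex limits the sliding. The dynein motors are assembled in the cytoplasm by dedicated factors before they enter the cilium. In multiciliated cells MCIDAS and CCNO drive the amplification of basal bodies, and FOXJ1 with the RFX factors switches on the structural genes. RFX factors bind the X-box, an inverted repeat of the short site GTTGCC. In the brain, beating cilia are known from ependymal cells and the choroid plexus, whereas most neurons and their progenitors carry an immotile primary cilium. In bulk tissue, fewer cells of a type and less accessibility per cell cannot be told apart.

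The sequences below show some of the GTTGCC sites found in the motile cilium promoters. Each is 30 bases from the reference genome (GRCm38, the coordinates of mm10), read 5′ to 3′ on the strand given so that GTTGCC stands in capitals. A second run of capitals, GNAAC after 1 to 4 bases, marks a mate that completes the inverted repeat. The first 7 are touched in both libraries, in part or in full, by footprints, short protected stretches called by the authors.
Cfap44, chr16:44394768-44394797, minus strand: ccgtttactgcgGTTGCCataGCAACgtcc
Ccdc103, chr11:102881216-102881245, minus strand: gcaacagagattGTTGCCtaGCAACggcgc
Dnaaf2, chr12:69198421-69198450, plus strand: agcgcgtgctttGTTGCCataGTAACgcct
Drc1, chr5:30281370-30281399, minus strand: taggaacaagccGTTGCCaagggaaagcag
Ccno, chr13:112987571-112987600, plus strand: acccgggctgcgGTTGCCacggtgacgaca
Spef2, chr15:9748843-9748872, minus strand: ccttagcaactgGTTGCCctgggcgacggg
Dnah10, chr5:124725083-124725112, plus strand: gctagggtcgccGTTGCCacggacgcccgc
The next 4 hold a mate and show the other outcomes: a footprint in replicate 2 alone at Cfap54, a promoter peak without a footprint over the site at Hydin, a promoter peak in replicate 2 alone at Tekt4, and no promoter peak at Tekt2.
Cfap54, chr10:93081626-93081655, plus strand: ggtggacaagcgGTTGCCaaGCAACgatct
Hydin, chr8:110266952-110266981, minus strand: ttgttaccatctGTTGCCacaGCAACcgca
Tekt4, chr17:25471586-25471615, minus strand: gcaaggttcctgGTTGCCtaaGGAACattg
Tekt2, chr4:126325693-126325722, plus strand: tttgcggctctgGTTGCCgaGCAACcgccc

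Peak values are taken from the authors' signal column and have no stated unit. Replicate 1 had 61744 peaks and 112201 footprints, and replicate 2 had 131460 peaks and 261231 footprints. Of all genes with promoter peaks in each library, 92.6% had the higher value in replicate 2. Depth in reads is unknown, and whether depth differed was not tested. Of 10 cerebellar identity genes, 8 had promoter peaks in both libraries, among them Zic1, En2 and Neurod1, beside 58.9% of all coding genes. The others were Barhl1, which had no peak, and Pax6, which had a peak of 3.66 in replicate 2 alone. The list had a median of 20.5 CpG dinucleotides in a 300 bp promoter window, against 12 over all genes. The part of CpG content in this count was not tested. Of the 8, 4 were higher in replicate 1, among them Zic1 at 1.72 and 0.705. The median of the list's peaks was 1.45 in replicate 1 and 1.32 in replicate 2, against 2.11 and 4.00 over all genes.

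Most motile cilium promoters were accessible in the P4 cerebellum. A promoter peak, meaning a peak within 500 bp of any coding start, was present in both libraries at 37 of 49 genes (75.5%), where 58.9% of all coding genes had one. Replicate 1 had a peak at 37 members (59.9% of all genes) and replicate 2 at 43 (65.0% of all genes). The peak was in replicate 2 alone at 6 members, against 6.10% of all genes, and at no member in replicate 1 alone. In the stricter peak list 32 members were open in both libraries, against 52.3% of all genes. Dnah5, Dnah8, Dnah17, Dnah3, Dnah12 and Tekt2 had no promoter peak in either library, and none of them held an interval under the authors' FDR of 0.05 there. Although often present, the peaks were low: the median over the members open in both was 1.35 in replicate 1 and 2.38 in replicate 2, below the 2.14 and 4.46 of all genes open in both. Only 10 of the 37 lay above the all-gene median in each library.

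**Figure D1:**
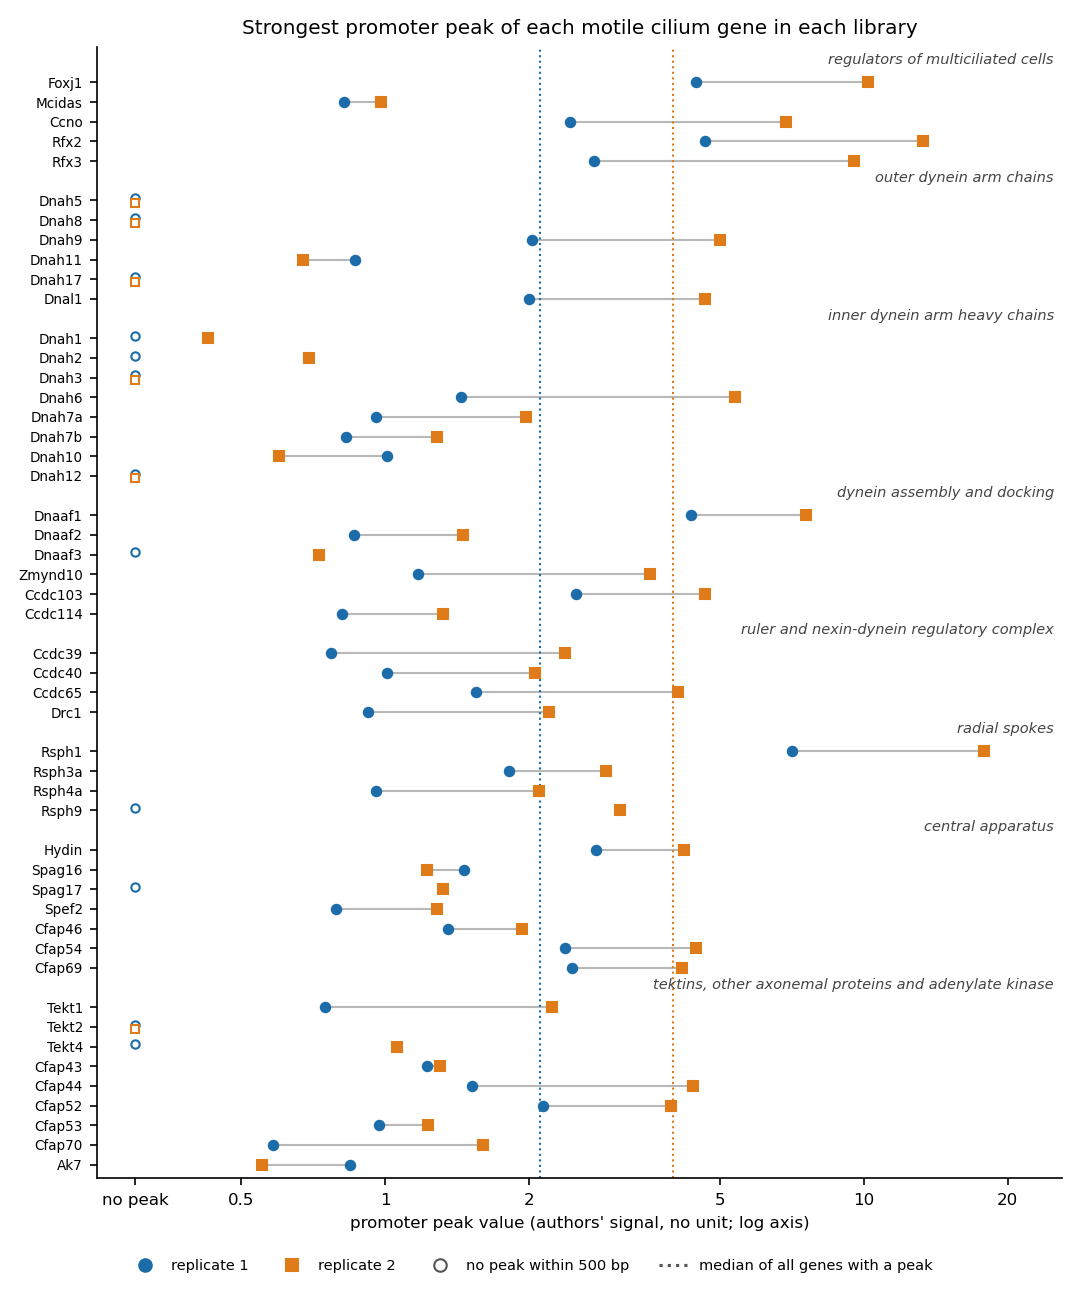
Each row is a motile cilium gene, grouped by role, and each point is the value of its strongest promoter peak (authors' signal, log axis) in replicate 1 (circle) or replicate 2 (square), with open symbols at the left for no peak. Rsph1 lies farthest right at 7.10 and 17.9, while 6 genes have open symbols for both libraries and most points lie left of the dotted median of all genes with a peak, 2.11 in replicate 1 and 4.00 in replicate 2.

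The regulators were open in both libraries at 5 of 5 genes, beside 58.9% of all coding genes. Their promoters are rich in CpG, with a median of 33 in the 300 bp window, against 12 over all genes. Of all promoters with 26 to 32 CpG 92.3% were open in both libraries, and of those with 32 to 66 CpG 94.7%. The part of CpG content in the regulators' count was not tested. Rfx2, a transcription factor of the RFX family (chr17:56775897-56831013, minus strand), had promoter peaks of 4.65 in replicate 1 and 13.3 in replicate 2, a mean of 8.99 ± 6.14 (SD, n = 2). Foxj1, the forkhead factor required for motile cilia (chr11:116330704-116335399, minus strand), had 4.46 and 10.2, a mean of 7.35 ± 4.08 (SD, n = 2). These values placed Rfx2 at the 93rd and 96.7th percentile and Foxj1 at the 91.5th and 89.5th percentile of genes with a peak, so both stood near the top in either library. Rfx3, whose product also acts in primary ciliated cells, had 2.73 and 9.57, and the middle of this peak lay at -440 bp from a start in replicate 1 and at -450 bp in replicate 2. The peak nearest to an Rfx3 start was far weaker, with a mean of 0.805 in place of 6.15 ± 4.84 (SD, n = 2). Ccno, an atypical cyclin needed for basal body amplification, had 2.43 and 6.88. Mcidas, which lies 6043 bp from Ccno and encodes the coregulator that starts the multiciliated programme, had only 0.819 and 0.978, from a peak whose middle was 546 bp and 558 bp downstream of the start. It had no peak in the stricter list in either library. Of 4 further genes that act early in this programme, Trp73 and Foxn4 had no promoter peak, Gmnc had 0.574 and 0.259, and Myb had 0.761 and 0.878.

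Because Foxj1 and Rsph1 stood among the strongest members, the part of each peak upstream of the coding start is shown, 141 bases at Foxj1 and 77 at Rsph1. Both read in the gene's direction and end at the base before the start, and capitals mark the bases covered by a footprint in both libraries.
Foxj1, chr11:116335400-116335540, minus strand: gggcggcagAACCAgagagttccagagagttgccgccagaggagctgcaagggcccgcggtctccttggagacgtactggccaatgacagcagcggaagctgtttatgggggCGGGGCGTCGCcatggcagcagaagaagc
Rsph1, chr17:31277384-31277460, minus strand: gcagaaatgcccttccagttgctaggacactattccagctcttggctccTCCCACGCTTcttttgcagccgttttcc
The Foxj1 stretch held a GTTGCC at -113 bp, a CCAAT box at -61 bp and GC boxes (GGGCGG) at -141 and -32 bp from the start. Neither the GTTGCC nor the CCAAT box was touched by a footprint in either library. A replicate 2 footprint from -107 to -99 bp began right after the GTTGCC, which ends at -108 bp. The GC box at -32 bp had 3 of its bases in a replicate 1 footprint and 6 in a replicate 2 footprint. The stretch also held a looser RFX pair, GTNNCC and GGNNAC (gtctccttggagac), a form added after the data were seen. A replicate 1 footprint from -85 to -76 bp covered part of this pair, and no replicate 2 footprint did. The Rsph1 stretch held none of the 6 single motifs searched, and its shared footprint covered 10 bases. The full 300 bp window of Rsph1, from 250 bp before to 50 bp after the start, did hold a CCAAT box and a GC box.

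Of the dynein arm genes, 3 of 6 outer arm chains and 4 of 8 inner arm heavy chains were open in both libraries, beside the 58.9% of all coding genes. Their promoters had a median of 9 and 8.5 CpG dinucleotides in the 300 bp window, against 12 over all genes, and the part of CpG content in these counts was not tested. Among the outer arm chains Dnah9 had 2.03 and 5.02, and Dnal1, a light chain, had 2.00 and 4.66. Dnah11, a heavy chain of the outer arm in the proximal cilium, was low at 0.864 and 0.672. Dnah5, the core outer arm heavy chain of ciliated epithelia, had no peak, nor did Dnah8 and Dnah17, the outer arm heavy chains known from sperm. Among the inner arm chains Dnah6 was the highest at 1.44 and 5.38, a log2 difference between the libraries of 1.90 that was the largest of the members for the strongest peak of each promoter. Dnah7a had 0.955 and 1.97, Dnah7b 0.826 and 1.28, and Dnah10 1.01 and 0.599. Dnah7a and Dnah7b are close copies, so reads could be split between them and their values are uncertain, and for Dnah7b the peak nearest to the start gave a mean of 0.608 in place of 1.05. In replicate 2 alone, Dnah1 had 0.426 and Dnah2 0.692, both low values absent from the stricter list.

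Of the factors that assemble or dock the motors, 5 of 6 genes were open in both libraries, beside 58.9% of all genes. Dnaaf1, a cytoplasmic assembly factor (chr8:119575235-119598454, plus strand), had 4.36 and 7.58, a mean of 5.97 ± 2.27 (SD, n = 2). Its start lies 52 bp from that of Hsdl1 on the other strand, so the peak cannot be assigned to either gene. Ccdc103, a dynein attachment factor whose start lies 219 bp from that of Eftud2, had 2.51 and 4.66. Zmynd10 had 1.17 and 3.57, and Dnaaf2 had 0.858 and 1.45. Dnaaf3, a further assembly factor, had a peak of 0.725 in replicate 2 alone. For Ccdc114, a docking complex subunit, the values of 0.813 and 1.32 came from a peak at the edge of the window, and a window of 1000 bp took in a stronger peak with a mean of 4.01 in place of 1.07.

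All 4 genes of the ruler and the nexin-dynein regulatory complex were open in both libraries, beside 58.9% of all coding genes, at modest values. Ccdc39, which with Ccdc40 sets the repeat length along the doublet, had 0.768 and 2.38. Ccdc40 had 1.01 and 2.06, and its start lies 73 bp from one of Tbc1d16. These 2 values came from different peaks that do not overlap, chr11:119228471-119228594 in replicate 1 and chr11:119229001-119229200 in replicate 2. With the peak nearest to a start its log2 difference was 1.21 in place of 1.03. Ccdc65 had 1.55 and 4.09 and Drc1 had 0.922 and 2.20, both subunits of the regulatory complex. The values of all 4 were higher in replicate 2, and all 4 were below the all-gene median in replicate 1.

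Of the radial spoke genes, 3 of 4 were open in both libraries, beside 58.9% of all coding genes, over a wide range of values. Rsph1, a spoke head protein (chr17:31255019-31277383, minus strand), had the strongest promoter peak of the list, with 7.10 in replicate 1 and 17.9 in replicate 2, a mean of 12.5 ± 7.64 (SD, n = 2). It stood at the 99.6th and 99.5th percentile of genes with a promoter peak. Rsph3a had 1.81 and 2.90 (the peak nearest to a start gave a log2 difference of 2.18 in place of 0.68) and is uncertain because of its close copy Rsph3b, which had 1.57 and 2.71. Rsph4a, another head protein, was far lower than Rsph1, with 0.955 and 2.10. Rsph9, also of the spoke head, had 3.09 in replicate 2, above the other peaks found in that library alone, and no peak in replicate 1, where an FDR interval of only 3 bp reached 0.048.

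In the central apparatus 6 of 7 genes were open in both libraries, beside 58.9% of all coding genes. Hydin, a giant protein of the central pair projection (chr8:110266977-110610253, plus strand), had 2.76 and 4.22, Cfap54 had 2.38 and 4.46, and Cfap69 had 2.46 and 4.18. These 3 exceeded the all-gene median of their library in replicate 1. Cfap46 had 1.35 and 1.93, and a window of 1000 bp raised its mean from 1.64 to 3.4. Spef2, needed for sperm tails and airway cilia, had 0.787 and 1.28. Spag16, a scaffold protein of the central apparatus, was among the few members higher in replicate 1, with 1.46 and 1.22. Its partner Spag17 had 1.32 in replicate 2 alone.

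Of the tektins, other axonemal proteins and the adenylate kinase Ak7, 7 of 9 were open in both libraries, beside 58.9% of all coding genes. Tektins are filament proteins inside the doublet wall. Tekt1 had 0.748 and 2.23, Tekt4 had 1.06 in replicate 2 alone and Tekt2 had no peak. Cfap44, which with Cfap43 tethers inner arm heads to the doublet, had 1.52 and 4.40, and Cfap52 had 2.14 and 3.95, its start 542 bp from that of Stx8. With a window of 1000 bp the Cfap52 mean was 4.60 in place of 3.05. Cfap43, Cfap53, Cfap70 and Ak7 had means between 0.699 and 1.26. Ak7, which keeps adenine nucleotides in balance along the cilium, was higher in replicate 1 at 0.845 against 0.552.

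The libraries differed in scale at these promoters about as they did elsewhere. The value was higher in replicate 2 at 33 of the 37 members open in both, and higher in replicate 1 at Dnah10, Ak7, Dnah11 and Spag16. The median log2 difference, replicate 2 minus replicate 1, was 0.91 over these members (SD 0.66, range -0.76 to 1.90) and 1.02 over all genes open in both (SD 0.60). After each library was divided by its median promoter value, the member median was -0.02 and that of all genes 0.10. If 1 step of the deposited values stands for 1 cut, the exact 95% Poisson intervals of the libraries lay apart at 30 members in favour of replicate 2 and at 2 in favour of replicate 1, and overlapped at 5. These intervals cover counting error only.

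**Figure D2:**
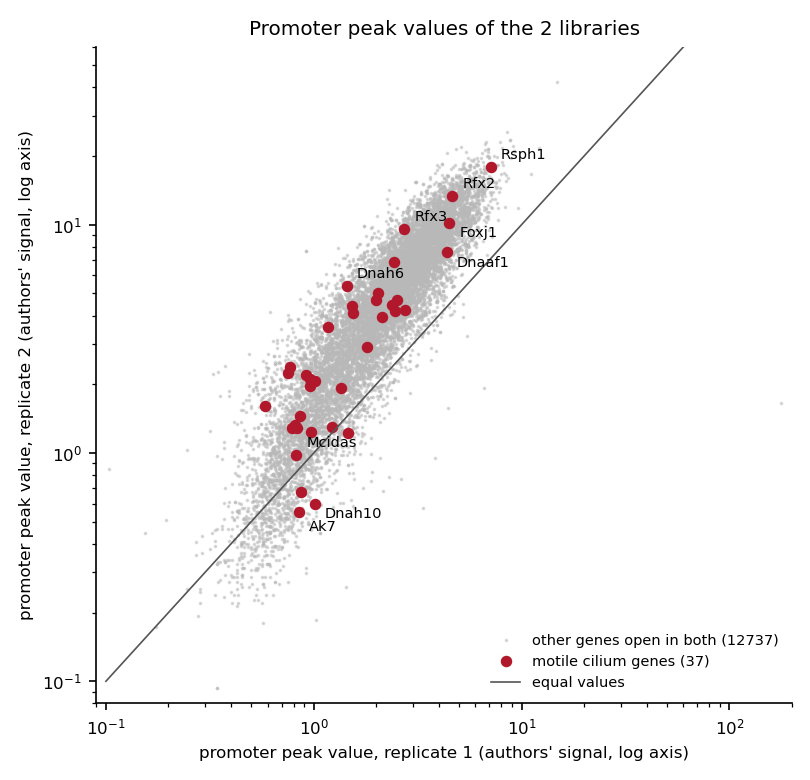
Each point is a gene with a promoter peak in both libraries, placed by its value in replicate 1 and in replicate 2 (authors' signal, both axes log), with the 37 motile cilium genes as large points and the line marking equal values. The members run from Ak7 at 0.845 and 0.552 to Rsph1 at 7.10 and 17.9, inside a cloud that extends past both ends, and 33 of them lie above the line.

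The promoters were also compared by their CpG content. After ranking all genes by the number of CpG dinucleotides in the 300 bp window from 250 bp before to 50 bp after the start and cutting the ranking into 10 equal classes, most members fell in classes 4, 5 and 6, with 7, 14 and 13 genes. In class 4, with 5 to 7 CpG, 3 of 7 members were open in both libraries, against 36.5% of its genes. In class 5, with 7 to 12 CpG, 13 of 14 were open, against 61.7%, and the other was Rsph9, open in replicate 2 alone. In class 6, with 12 to 16 CpG, 8 of 13 were open, against 83.4%. The members' shares thus lay above those of all genes in classes 4 and 5 and below in class 6, with no test of the differences. In classes 8 to 10 all 10 members were open, against 93.1%, and in classes 1 to 3 it was 1 of 3, against 12.7%. The peaks sat at the starts, with a median offset of their middle of -22 bp in each library and 30 of 37 within 150 bp.

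Genes of related function were set beside the list. A second list of 50 motile cilium genes was open in both libraries at 40 genes, beside 58.9% of all coding genes. Its median values were 1.38 and 2.71, close to those of the members. Within it Ccdc151, a docking factor, had 4.23 and 13.7, and Enkur had 4.30 and 11.3. Primary cilium genes, which include intraflagellar transport proteins and BBSome subunits, had promoter peaks in both libraries at 31 of 31, beside the same 58.9%. Their medians were 2.70 and 6.35. The lowest by mean, Tmem67, had 1.18 and 2.97. The primary cilium values were thus higher than those of the motile genes in both libraries, with no test of the difference. The primary cilium promoters had a median of 20 CpG, against 12 in the members and 13.5 in the second motile list. Another coding start lay within 1000 bp at 29% of them, against 10.2% and 22%. The all-gene median values were 1.81 and 3.88 in CpG classes 4 to 7 and 2.66 and 5.53 in classes 8 to 10. The part of these features in the difference was not tested. Markers of other ciliated or candidate tissues were mostly without peaks, and the part of CpG content in this was not tested. Many of their promoters are poor in CpG, with medians of 7, 4 and 3.5 in the choroid plexus, male germ cell and airway lists. Over all genes only 21.1% of class 3 and 36.5% of class 4 promoters, with 3 to 7 CpG, were open in both libraries. Of the choroid plexus markers, however, Aqp1, Prlr and Kcne2 lay in class 5, Otx2 in class 6 and Kl in class 7. In these classes 61.7%, 83.4% and 90.6% of all genes were open. The other choroid plexus markers lay in classes 2 to 4. Of the male germ cell markers Ddx4 lay in class 7 and Dazl in class 9, and of the airway markers Krt14 in class 5 and Foxa1 in class 8. In classes 8 and 9, 92.2% and 92.3% of all genes were open. The rest of these 2 lists lay in classes 1 to 4. Of 10 choroid plexus markers 2 were open in both libraries, Prlr at 0.645 and 2.06 and Kl at 0.639 and 0.353, while Ttr, Folr1, Kcnj13, Clic6, Otx2, Slc4a5 and Kcne2 were at 0 and Aqp1 had 0.672 in replicate 2 alone. Of 10 male germ cell markers only Dazl was open, at 2.74 and 3.45, and of 8 airway markers none was open in both libraries, with Muc5b at 0.286 and Foxa1 at 0.253 in replicate 2 alone.

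The RFX site GTTGCC, on either strand of the 300 bp window, was present in 21 of 49 motile cilium promoters (42.9%), against 12.1% of all coding genes. The other motile cilium list had it in 22 of 50 (44%) and the primary cilium list in 13 of 31 (41.9%), the choroid plexus list in 3 of 10, the male germ cell list in 2 of 10, the cerebellar identity list in 1 of 10 and the airway list in 0 of 8. It was found at all 5 regulators and at 5 of 7 central apparatus genes, and at none of the 6 outer arm chains and 4 radial spoke genes, so the strongest promoter, Rsph1, held none. The members' sites also lay near the start: 18 of 27 (66.7%) were within 50 bp of it, against 36.8% of the sites over all genes. Members with the site were open in both libraries at 19 of 21 and those without at 18 of 28, while over all genes the shares with and without were 60.7% and 58.7%. The members with the site were uneven in CpG content. It was held by 8 of the 10 members in CpG classes 8 to 10, all open, and by 11 of 36 in classes 4 to 7. Over all genes 11.6% and 12.8% of promoters in these classes held it. The part of CpG content in the members' contrast was not tested. The median peak values of the open members were 1.46 with a site and 1.19 without in replicate 1, and in the other order, 2.20 and 2.64, in replicate 2. No match is a statement on these letters in this window only.

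**Figure D3:**
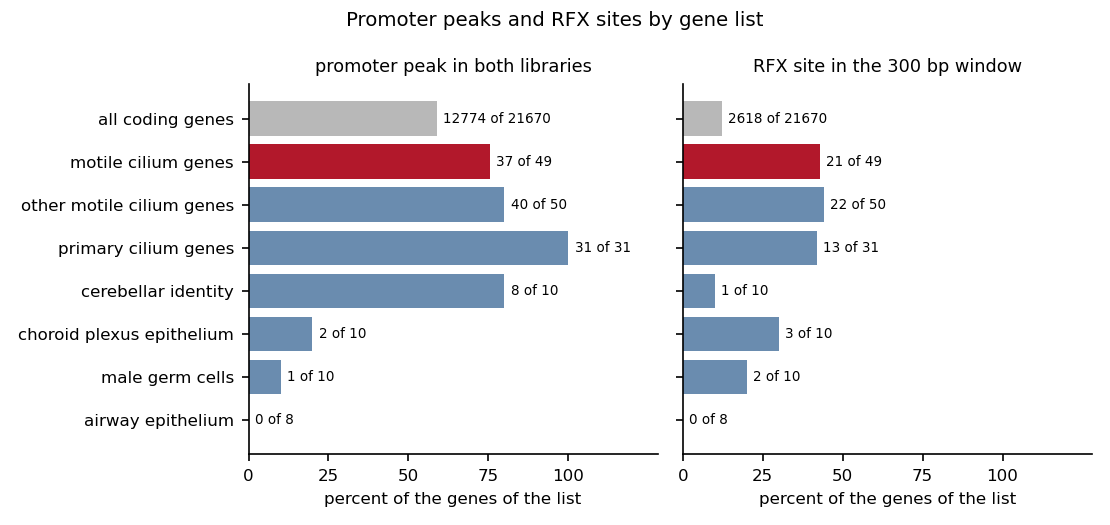
Bars give the percent of genes in each list with a promoter peak in both libraries (left) and with the RFX site GTTGCC in the 300 bp window (right), both from 0, with counts beside them. The 2 motile cilium lists and the primary cilium list lie between 41.9% and 44% for the site, above the 12.1% of all coding genes, while the marker lists of other tissues are lowest for the promoter peak.

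Fuller matches to the inverted repeat were rarer. The pair GTTNCC and GGNAAC with up to 3 bases between them was in no member promoter and in 0.743% of all promoters. A looser pair, GTNNCC and GGNNAC with the same spacing, was in 7 of 49 members against 3.89%. GTTGCC followed after 1 to 4 bases by GNAAC was in 9 of 49 members against 0.872%: Rfx2, Dnaaf2, Ccdc103, Hydin, Spag16, Cfap54, Tekt2, Tekt4 and Cfap44. The looser pair and this form were added after the data were seen. This form contains GTTGCC by construction, and 3 of the 50 other motile cilium genes and 4 of the 31 primary cilium genes held it. The forkhead motif GTAAACA was in 3 members, Ccdc114, Cfap43 and Ak7 (3.05% of all promoters). CCAAT was in 20 members (40.8%, against 38.8%) and GGGCGG in 22 (44.9%, against 44.2%), shares near those of all promoters.

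Footprints were called within 500 bp of a start in both libraries at 34 members, against 56.5% of all genes. Among members open in both, the median number of footprints shared by the libraries was 2, the same as over all genes open in both. In each library alone the members had fewer, with medians of 3 against 4 in replicate 1 and 4 against 6 in replicate 2. Foxj1 and Rsph1 had the most, 5 shared footprints each, followed by Dnaaf1, Dnah9 and Rfx2 with 4 each. Over the GTTGCC sites themselves, 7 of 27 member sites (25.9%) touched a footprint in both libraries, against 7.88% of the 2879 sites over all genes. Among promoters open in both libraries the shares were 29.2% of 24 member sites and 12.9% of 1764. At Cfap44, Dnaaf2 and Drc1 all 6 bases of GTTGCC lay inside a footprint in each library. At Ccdc103 the footprints covered 3 bases in replicate 1 and 6 in replicate 2, and the mate GCAAC stands beside it as printed above. The Ccno site, at -219 bp, was covered over 6 and 5 bases. At Spef2 the cover was 5 bases in each library, and at the Dnah10 site printed above 6 and 3. The Foxj1 site, which lies inside its promoter peak, was touched by no footprint in either library. The Rfx2 and Rfx3 sites also had none, but the Rfx3 site lies outside the strong Rfx3 peak in both libraries and the Rfx2 site outside the Rfx2 peak of replicate 2. With a mate, 3 of 9 member sites (33.3%) had a footprint in both libraries, and over all genes 29.8% of such sites did, so with the mate the shares were close.

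**Figure D4:**
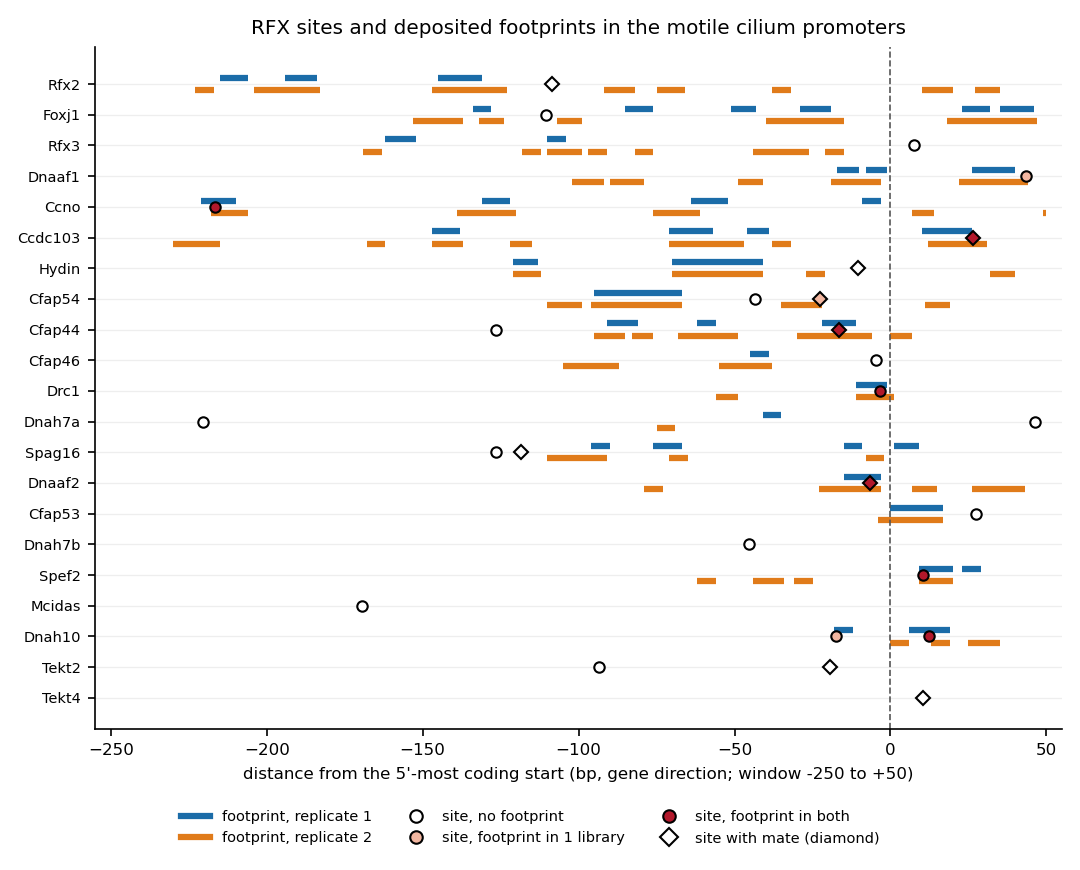
Rows are the 21 motile cilium genes with a GTTGCC site, the horizontal axis is the distance in bp from the start in the gene's direction, bars are footprints of replicate 1 (upper) and replicate 2 (lower), and symbols are the sites, diamonds where a mate is present, filled where a footprint touches them. Most sites stand within 50 bp of the start, and the 7 dark symbols, from Ccno to Dnah10, mark footprints in both libraries.

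Distal peaks near the members were about as many as near other genes. Distal peaks were those over 1000 bp from any coding start, in the gene body or 50 kb on either side, and those of replicate 1 that overlapped a peak of replicate 2 were counted. There were 140 distinct shared distal peaks at the members' loci, with a median of 2 per locus, as over all genes, or 1.08 per 100 kb against 0.975. Of the 142 placements (2 peaks lie at both the Ccno and the Mcidas locus), 51 were in the gene body and 91 in a flank, and 49 lay inside another coding gene. Dnah2 had the most, 16, followed by Ccdc40 with 9. Dnah8, Tekt4, Dnah17, Ccdc103 and Dnah1 had 6 each. Dnah8 and Dnah17 thus had shared distal peaks but no promoter peak, and the Dnah2 peaks included several past the 3′ end of the gene, of which 1 at chr11:69418821-69419160 had 1.93 and 8.49. The strongest distal peak lay inside Cfap46, 35.5 kb from its start, at chr7:139648201-139648340, with 4.67 and 9.45, higher than the Cfap46 promoter in both libraries. A peak 16.2 kb downstream of the Foxj1 start and past the end of the gene, at chr11:116319081-116319260, had 3.54 and 4.70. No shared distal peak was found at 9 of the 49 loci, among them Dnaaf1, Cfap69 and Ccdc39. Over all genes it was 6087 of 21670, with shorter loci, a median of 117 kb against 176 kb in the members.

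**Figure D5:**
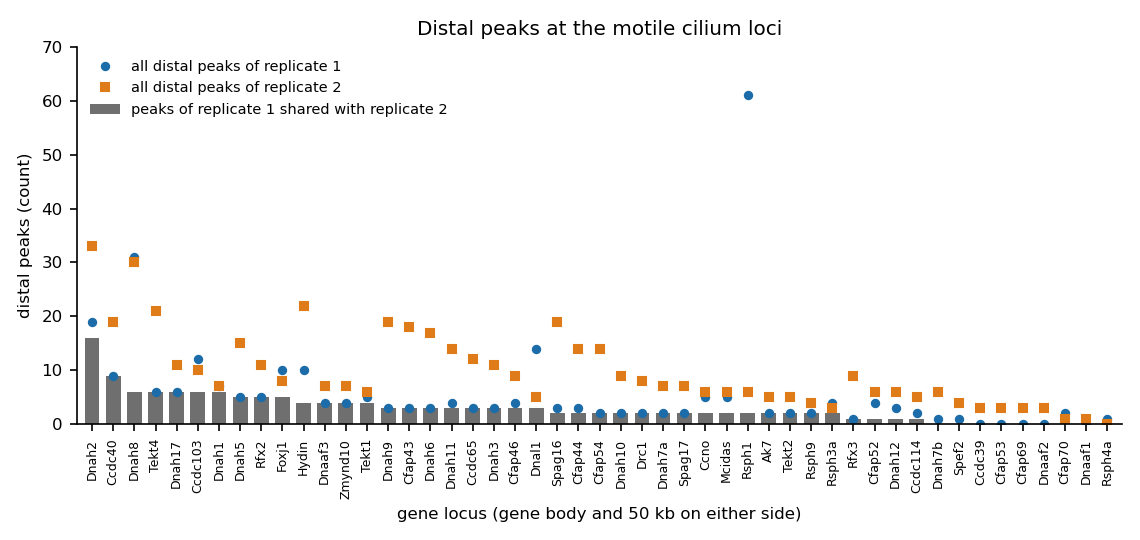
For each motile cilium locus (gene body and 50 kb on either side) the bar is the number of distal peaks of replicate 1 shared with replicate 2, the circle all distal peaks of replicate 1 and the square all those of replicate 2. Dnah2 has the highest bar at 16, and the circle of Rsph1 stands apart at 61. Replicate 2, the library with more peaks in all, is higher at 40 of 49 loci.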

How the data were processed

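The authors deposited, for each of the 2 libraries, narrowPeak lists on mm10, intervals of the cut rate FDR and footprints, per the file headers and labels. Peak values are the signal column of the deposited lists, which the authors scaled by a factor that no source states. The deposited FDR column is a q-value type of value, all under 0.05. Deposited footprint rows carry the same number throughout (another kind of value, not used), so only positions were read. Aligner and callers: not given in the sources used here, and depth in reads is unknown.

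Starts came from GENCODE M21. A gene's value was its strongest peak overlapping a 500 bp window by at least 1 bp, in the larger peak list. This peak was picked in each library on its own. Motifs were searched in the GRCm38 sequence, both strands. No test was run, since there is 1 group. Counts are set beside all 21670 genes, and SD with n = 2 measures the spread between libraries. The members and lists were chosen with earlier results of these data known. Members were named with full values by rank of peak value (10 highest), presence in 1 library, largest and smallest library difference (5 each), most shared distal peaks and footprints (5 each) and the first 2 of each role, and others by role. Alternatives changed the peak list, window, start, overlap, peak number, flank, scaling, motif and libraries. The looser pair, the GNAAC mate and leaving out members near another start were chosen after seeing the data. Scripts used Python 3.11.15, pandas 2.3.3, numpy 2.4.6, scipy 1.17.1, pysam 0.24.0, bedtools 2.31.1 and matplotlib 3.10.9, and were tested on simulated data with planted peaks and motifs.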

Additional observations from a re-analysis of the deposited data

How the results depend on the processing

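The number of members open in both libraries was 37 and ranged from 32 to 39 under the stricter peak list, the narrower and wider windows, the 5′-most start, the peak middle and equal numbers of peaks. It was 33 of 44 without the 5 members near another coding start, and leaving out a library gave 37 to 43. Members with a footprint in both libraries numbered 34, with 33 and 36 under windows of 250 and 1000 bp and 35 to 42 from a single library. The median log2 difference of 0.91 became -0.02 once values were divided by the library median. The 140 shared distal peaks became 93 with a 20 kb flank, 236 with 100 kb and 80 with the stricter list, and leaving out a library gave 277 to 469 (469 without replicate 1, 277 without replicate 2), since unshared peaks then count. The RFX pair, in 0 members, was also in 0 within 500 bp of any start or with no base between. Over all promoters the pair was in 0.743%. The looser pair was in 7 members (3.89% of all promoters), GTTGCC followed by GNAAC in 9 (0.872%) and GTTGCC alone in 21 (12.1%). With the peak nearest to a start the log2 differences of Dnah7b, Rfx3 and Rsph3a were -0.27, 0.60 and 2.18, and with a 1000 bp window that of Cfap52 was -0.41, and the cause was not tested. No paired analysis was possible because both libraries belong to 1 group. The members Mcidas, Ccdc114, Ccdc40, Tekt1 and Cfap70, open in both libraries, lack a stricter peak in at least 1 library. With no read totals and 2 libraries, the absence of a peak means only that none was detectable here.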

Other observations

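At 40 of 49 members' loci replicate 2, with 131460 peaks in all against 61744, had more distal peaks than replicate 1. The share of all coding genes with more in replicate 2 was not counted. The reverse held at 8 members' loci and at 8.98% of all coding genes. The Rsph1 locus stood out among these 8, with 61 distal peaks in replicate 1 and 6 in replicate 2, of which 2 were shared. Of the 61, 56 had a value under 0.5 and their median was 0.219, where the median over all distal peaks of replicate 1 was 0.658. At Dnah8 replicate 1 had 31 distal peaks, 24 of them under 0.5, and replicate 2 had 30, with 6 shared. At Dnal1 there were 14 and 5, with 3 shared. Over all coding genes 11 loci had at least 50 more distal peaks in replicate 1 than in replicate 2. The cause was not tested.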
